A study of Homo sapiens with 9 samples.

Results

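The nuclear-encoded subunits of the respiratory chain and ATP synthase were taken from the gene list by their symbols. These were symbols of the NDUFA, NDUFB, NDUFC, NDUFS and NDUFV series, SDHA to SDHD, the UQCR subunits, the numbered COX subunits and the ATP5F1, ATP5M and ATP5P series, without pseudogenes. Of 32906 listed genes, 83 carried such a symbol, and 79 of them name a subunit or a subunit isoform. The other 4 were the antisense RNAs NDUFA6-AS1, NDUFB2-AS1 and NDUFV2-AS1 and the paralog ATP5MGL, which were not counted as members. The members were 36 subunits of complex I, 4 of complex II, 8 of complex III, 14 of complex IV and 17 of complex V. NDUFA4 and its paralog NDUFA4L2 carry a complex I symbol but were counted with complex IV, to which NDUFA4 belongs.

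The respiratory chain moves electrons from NADH and succinate to oxygen and pumps protons across the inner mitochondrial membrane, and ATP synthase uses the returning protons to make ATP. Complex I oxidizes NADH, complex II oxidizes succinate, complex III passes electrons to cytochrome c, and complex IV, cytochrome c oxidase, reduces oxygen. Most subunits are encoded in the nucleus and imported, while a few core subunits are made inside the mitochondrion from its own genome, so each complex except complex II is built from both sources.

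The cells were of the established hepatocellular carcinoma line Huh7, grown in DMEM with fetal bovine serum. They were transfected with a Scramble control or with either of the siRNAs Si-KDM4C#1 and Si-KDM4C#2, and RNA was taken after 48 hours, with 3 libraries per group and 9 in all. KDM4C is a histone demethylase that removes methyl groups from lysines of histone H3, lysine 9 among them. All groups shared the line, the medium and the transfection, and the study says in general that its experiments were done repeatedly and independently. The labels do not tie the libraries to separate cultures, so p-values measure the spread between these libraries.

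Values are FPKM, fragments scaled to exon length and library depth. The length counts all annotated exons of a gene, such as 507 bases for COX8A and 14160 for SDHC. Comparisons of level between genes therefore also depend on the annotation. The recovered depth was 14597506 to 18058556 fragments per library. For 1 kb of exons, the floor of 3 fragments comes to 0.166 to 0.206 FPKM, counting error only. All 11 hepatocyte markers with a value here were under 1 FPKM in every library, so the liver origin given by the label was not shown by these mRNAs. Planned hepatocyte, epithelial, leukocyte and endothelial markers without a value here were left out. The epithelial keratins KRT8 and KRT18 were present, while the other 1 of the 3 listed epithelial markers was under 1 FPKM in every library. Together the 3 summed to 330 to 353 FPKM in Scramble, 290 to 309 FPKM with Si-KDM4C#1, then 240 to 254 FPKM with Si-KDM4C#2. The 6 fibroblast markers summed to 49.4 to 52.9, 56.0 to 59.1 and 79.6 to 80.7 FPKM in the same order, with COL1A1, COL3A1, PDGFRB and LUM at 1 FPKM or more. All 4 leukocyte and 3 endothelial markers were under 1 FPKM in every library. These sums moved with the siRNAs, and their part in the results was not tested. In such bulk libraries, fewer cells of a type and less RNA per cell cannot be told apart.

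KDM4C mRNA was at 4.88, 4.63 and 4.57 FPKM in the Scramble libraries, 1.18, 1.10 and 1.13 FPKM with Si-KDM4C#1, then 0.256, 0.349 and 0.256 FPKM with Si-KDM4C#2. Every library of either siRNA lay below the Scramble range, and those with Si-KDM4C#2 were the lowest. On the log2 scale this was a change of -1.41 with Si-KDM4C#1 (adjusted p = 2.65e-07) and -2.15 with Si-KDM4C#2 (adjusted p = 5.45e-08), on log2(FPKM + 1) with limma-trend and Benjamini-Hochberg adjustment over 14363 genes. These genes reached a group mean of 1 FPKM in 1 or more groups, and fold changes on this scale understate those of weakly expressed genes. Both siRNA target sites lie in the coding sequence of KDM4C in the GRCh38 build, and are shown because they differ. Capitals mark the 7 bases that pair with bases 2 to 8, the seed, of the guide strand.
Si-KDM4C#1 site in KDM4C, chr9:7013790-7013808, strand plus: agatagcagcaATGAAGAa
Si-KDM4C#2 site in KDM4C, chr9:6893107-6893125, strand plus: gctggagaattCATGATCa

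The respiratory chain members ranged widely in level. In the Scramble libraries their median was 28.5 FPKM. The highest in FPKM was ATP5F1B, the catalytic beta subunit of ATP synthase, at 696 ± 13.4 FPKM (SD, n = 3). The highest member of complex I was NDUFS5 at 339 ± 26.4 FPKM (SD, n = 3), that of complex II the flavoprotein SDHA at 48.4 ± 1.95 FPKM, that of complex III UQCRH at 147 ± 14.6 FPKM and that of complex IV COX7C at 114 ± 5.56 FPKM. Of the 79 members, 75 passed the level filter and were tested. NDUFA7 and the complex IV isoforms COX6B2, COX7A1 and COX8C were below it. COX8C, a testis isoform, was at 0 in all 6 knockdown libraries and at 0, 0.236 and 0.109 FPKM in Scramble, which is near the floor. COX6B2, also known from testis, was at 0.903, 1.01 and 0.948 FPKM in Scramble, 0.377, 0.503 and 0.408 FPKM with Si-KDM4C#1, then 0.643, 0.590 and 0.830 FPKM with Si-KDM4C#2. COX7A1, the muscle isoform, lay between 0.371 and 1.02 FPKM in all libraries, with overlapping groups.

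A few subunits that every complex I needs were listed at very low values. NDUFA13 was at 0.592 ± 0.253 FPKM (SD, n = 3), NDUFA7 at 0.724 ± 0.270 FPKM and NDUFA9 at 1.04 ± 0.0966 FPKM in Scramble. FPKM divides by all annotated exons of a gene. Of the exon bases of NDUFA13, 21.0% were shared with another gene on the same strand, and of those of NDUFA7, 32.3%. Over all members, 15 of 79 shared over 10% of their exon bases with a gene on the same strand and 32 on either strand. Whether this lowered their values was not tested.

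With Si-KDM4C#1, 33 of the 75 tested members were higher than in Scramble and 19 were lower at an adjusted p under 0.05, and 23 did not pass. Over all 14363 genes tested, 31.7% were higher and 33.9% lower, against 44.0% and 25.3% of the members. With Si-KDM4C#2, 33 members were higher, 10 were lower and 32 did not pass, with 34.4% of all genes higher and 25.0% lower. The median log2 fold change of the members was 0.08 for Si-KDM4C#1 and 0.13 for Si-KDM4C#2, beside -0.03 and 0.06 over all genes tested. The split depended on how the libraries were scaled to each other. Under quantile normalization 27 members were higher and 27 lower with Si-KDM4C#1, against 28 up and 18 down with Si-KDM4C#2. Under median-ratio scaling the split with Si-KDM4C#1 was again 33 to 19, and that with Si-KDM4C#2 was 28 to 15.

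Changes of over 2-fold on the log2(FPKM + 1) scale were few. With Si-KDM4C#1, NDUFS6, COX6A1, COX8A and ATP5F1D were past that limit upwards, beside 4.04% of all genes, and NDUFV2, NDUFB1, NDUFB2, UQCRB and COX7B downwards, beside 4.83%. With Si-KDM4C#2 no member passed it (0 higher, where 2.60% of all genes did, and 0 lower, where 2.30% did), although 33 and 10 passed the adjusted p alone. In a limma voom fit on recovered fragments, 1 member was past it in each direction with Si-KDM4C#2. The Scramble mean FPKM of NDUFV2 was 2.57 times that with Si-KDM4C#2, and the ATP5ME mean with Si-KDM4C#2 was 2.11 times that in Scramble. On plain group means, without the added 1, both were thus past the 2-fold limit. The 4 that were past it upwards with Si-KDM4C#1 became 2 without Scramble replicate 3 or without Si-KDM4C#1 replicate 2. With Si-KDM4C#2, 1 was past it upwards without Scramble replicate 1 or Si-KDM4C#2 replicate 3, and 1 downwards without Scramble replicate 3. Of the 75, 25 were higher and 7 lower with both siRNAs, 2 moved in opposite directions, 8 rose and 10 fell with Si-KDM4C#1 alone, 6 rose and 3 fell with Si-KDM4C#2 alone, and 14 passed with neither. Of all genes tested, 19.4% were higher and 15.2% lower with both, 9.77% moved in opposite directions, 8.28% rose and 13.0% fell with Si-KDM4C#1 alone, 9.35% rose and 5.65% fell with Si-KDM4C#2 alone, and 19.3% passed with neither. Since the Scramble libraries serve in both comparisons, the counts are not independent, and they rest on thresholds, and the direct comparison of the siRNAs is given with each member.

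**Figure D1:**
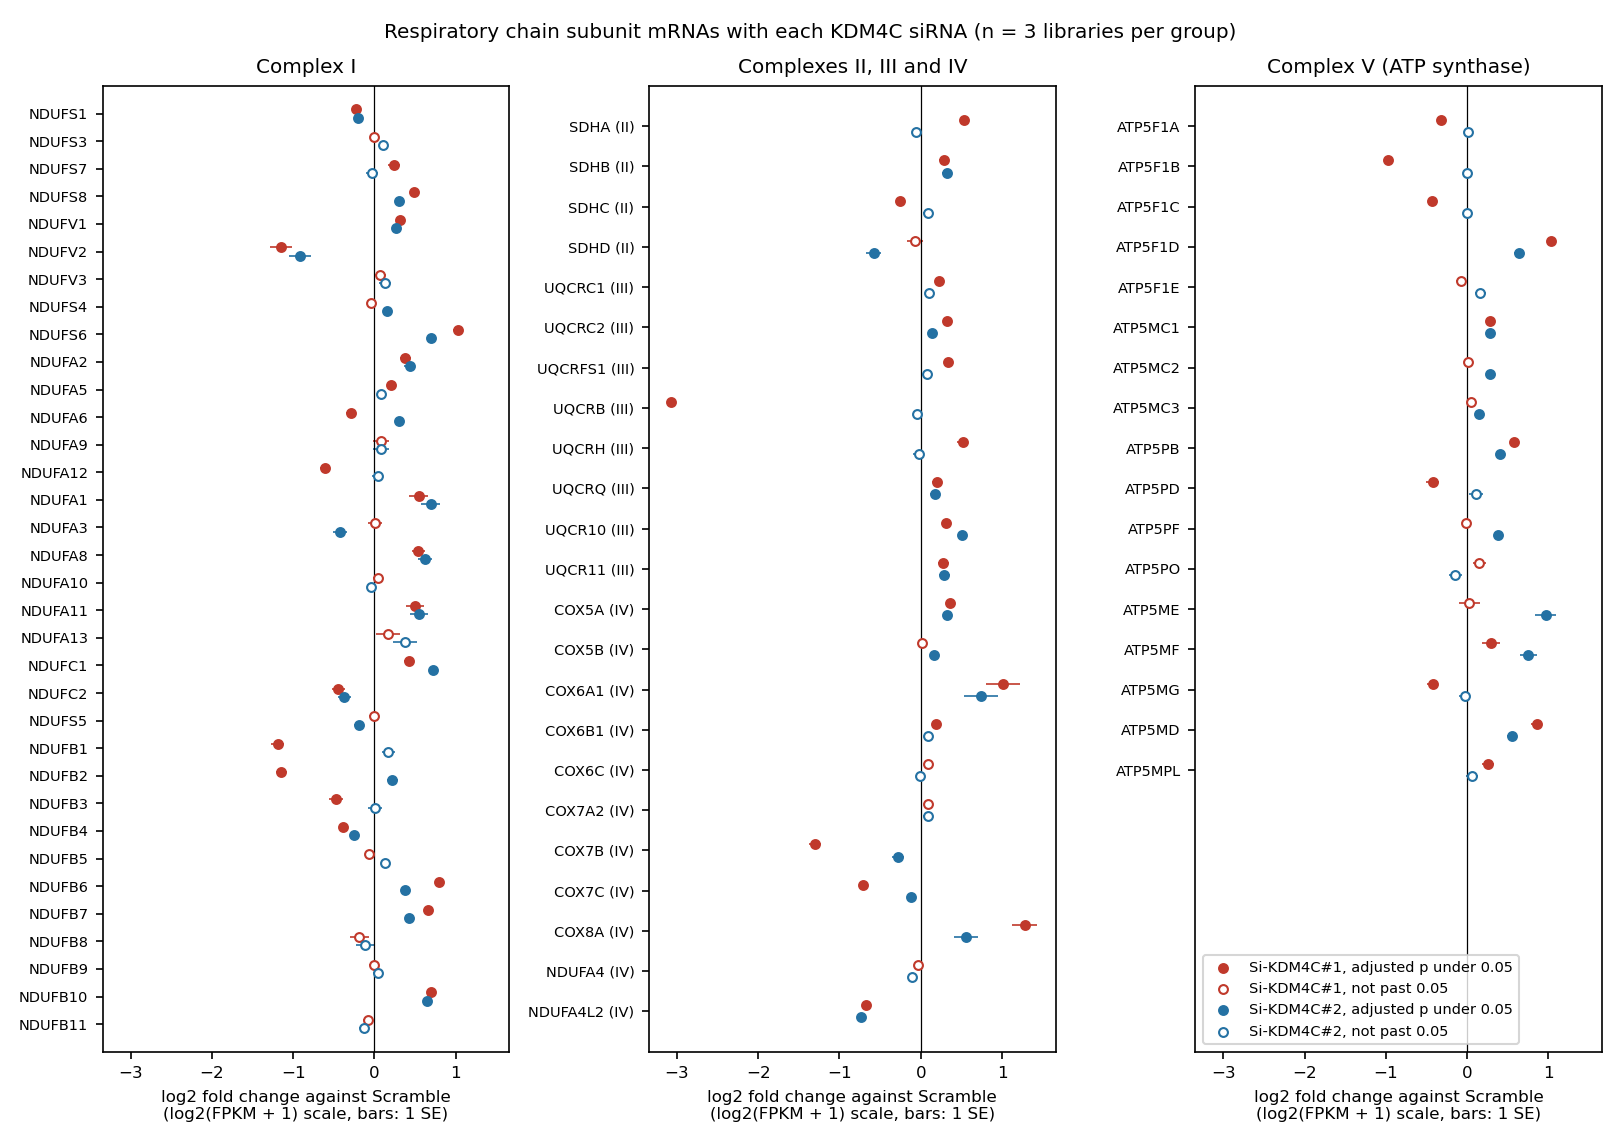
Log2 fold change against Scramble (horizontal axis, log2(FPKM + 1) scale, bars 1 SE) of the tested members except 1, by complex, for Si-KDM4C#1 (red) and Si-KDM4C#2 (blue), n = 3 libraries per group. Filled points passed an adjusted p of 0.05. UQCRB at -3.07 with Si-KDM4C#1 stands far to the left, while most members lie between -1 and 1 with both siRNAs.

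The members' promoters were searched for 4 short motifs of factors known to act on respiratory genes, on both strands. The motifs were the NRF1 core GCGCATGCG, the ETS site CCGGAAG bound by GABPA, the YY1 element AAGATGGC and the ESRRA element CAAGGTCA, and no matches of different motifs overlapped in a member. RefSeq windows of 300 bases on GRCh38.p14, from 250 before to 50 after the start, were at hand for 64 of the 79 members. The NRF1 core was in 10 of the 64 (15.6%), beside 2.10% of all 27305 promoters and 4.01% of the 9172 matched to tested genes. The ETS site was in 19 (29.7%, beside 10.7% and 20.01%), the YY1 element in 11 (17.2%, beside 3.03% and 5.75%) and the ESRRA element in 4 (6.25%, beside 1.33% and 0.752%). Of the 22 such promoters of members higher with both siRNAs, 3 held the NRF1 core and 8 the ETS site, and of the 7 of members lower with Si-KDM4C#1 alone, 1 and 2. Shown here are the promoters of NDUFS6, COX6A1 and COX8A, past 2-fold upwards with Si-KDM4C#1, with the matches in capitals. NDUFS6 and COX6A1 hold the NRF1 core, COX6A1 and COX8A the ETS site, and COX8A the ESRRA element. At least 1 of the 4 was in 34 of the 64 windows. None was in those of NDUFV2, NDUFB1, NDUFB2 and COX7B, past 2-fold downwards, nor in those of NDUFS8, NDUFV1, NDUFA2, NDUFC1, NDUFB6 and NDUFB10, higher with both siRNAs. No window was at hand for UQCRB, also past 2-fold downwards, or for ATP5F1D, past it upwards, so these were not searched. A match is a description of letters, not of binding.
NDUFS6, chr5:1801157-1801456, strand plus: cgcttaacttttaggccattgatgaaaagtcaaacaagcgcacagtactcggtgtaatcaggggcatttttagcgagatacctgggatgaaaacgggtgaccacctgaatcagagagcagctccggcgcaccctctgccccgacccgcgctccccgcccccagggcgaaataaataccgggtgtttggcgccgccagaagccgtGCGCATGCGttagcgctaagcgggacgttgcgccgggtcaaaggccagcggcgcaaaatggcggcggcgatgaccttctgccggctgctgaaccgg
COX6A1, chr12:120437863-120438162, strand plus: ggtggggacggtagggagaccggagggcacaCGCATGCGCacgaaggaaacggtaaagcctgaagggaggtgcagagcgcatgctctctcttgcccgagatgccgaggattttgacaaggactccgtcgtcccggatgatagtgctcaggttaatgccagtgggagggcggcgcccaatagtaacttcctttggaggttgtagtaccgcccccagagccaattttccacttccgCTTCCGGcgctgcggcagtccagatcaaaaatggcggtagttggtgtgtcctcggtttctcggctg
COX8A, chr11:63974370-63974669, strand plus: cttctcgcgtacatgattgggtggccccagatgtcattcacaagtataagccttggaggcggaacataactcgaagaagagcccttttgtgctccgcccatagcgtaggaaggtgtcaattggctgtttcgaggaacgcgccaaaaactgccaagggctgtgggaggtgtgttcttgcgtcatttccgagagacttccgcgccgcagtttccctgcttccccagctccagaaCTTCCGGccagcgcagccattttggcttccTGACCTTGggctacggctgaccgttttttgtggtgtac

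In complex I, 14 of 35 tested subunits rose and 9 fell with Si-KDM4C#1, while 15 rose and 6 fell with Si-KDM4C#2. Of all genes tested, 31.7% rose and 33.9% fell with Si-KDM4C#1, against 34.4% and 25.0% under the other siRNA, and these shares also stand as the background of the counts by arm and by complex. Its median log2 fold change was 0.04 and 0.13, beside -0.03 and 0.06 over all genes. Of the 7 core subunits, which carry the flavin and the iron-sulfur clusters, 4 rose and 2 fell with Si-KDM4C#1, while with Si-KDM4C#2 3 rose and 2 fell. NDUFS8 and NDUFV1, an iron-sulfur subunit and the NADH-binding flavoprotein, were higher with both by log2 fold changes of 0.26 to 0.49.

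NDUFV2, an iron-sulfur subunit beside NDUFV1, went the other way. It was at 4.42, 3.18 and 2.82 FPKM in Scramble, 1.08, 0.809 and 1.08 FPKM with Si-KDM4C#1, then 1.19, 1.56 and 1.30 FPKM with Si-KDM4C#2. The groups did not overlap with Scramble, and the log2 fold change was -1.16 (SE 0.135, adjusted p = 4.33e-05) and -0.92 (adjusted p = 0.000284). It was weakly covered, with 32 recovered fragments in its lowest library, and 28.4% of its exon bases were shared with a gene on the same strand. NDUFS1, the largest iron-sulfur subunit, fell less, by 0.23 and 0.20 on the log2 scale, from 15.1 to 12.7 and 13.0 FPKM. NDUFS7 was 0.24 higher with Si-KDM4C#1 (adjusted p = 0.0196), a call that did not hold without Scramble replicate 2, Scramble replicate 3 or Si-KDM4C#1 replicate 1, and was at -0.03 with Si-KDM4C#2 (adjusted p = 0.723).

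Of the 8 tested accessory subunits of the matrix arm, 3 rose and 2 fell with Si-KDM4C#1, while 4 rose and 0 fell with Si-KDM4C#2. NDUFS6, a zinc-binding subunit at the base of the NADH-binding module, was at 52.0, 50.1 and 47.5 FPKM in Scramble. It was at 96.2, 108 and 103 FPKM with Si-KDM4C#1, then 85.1, 75.7 and 84.6 FPKM with Si-KDM4C#2, so the 3 groups did not overlap. Its log2 fold change was 1.02 (SE 0.060, adjusted p = 4.10e-07) and 0.70 (adjusted p = 7.73e-06), and it was 0.32 lower with Si-KDM4C#2 than with Si-KDM4C#1 (log2 difference -0.32, adjusted p = 0.00107).

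NDUFA6 and NDUFA12 differed between the siRNAs in the opposite sense. NDUFA6, an accessory subunit that binds the acyl carrier protein, was at 44.5, 47.1 and 49.9 FPKM in Scramble, 37.4, 39.0 and 38.3 FPKM with Si-KDM4C#1, then 60.6, 55.2 and 59.5 FPKM with Si-KDM4C#2. The Scramble libraries lay between those of the siRNAs, with no overlap. Its log2 fold change was -0.29 (adjusted p = 0.000549) and 0.30 (adjusted p = 0.000574), with a difference of 0.60 between the siRNAs (SE 0.050, adjusted p = 5.36e-06). NDUFA12 was at 20.4 ± 0.516 FPKM in Scramble, 13.0 ± 1.29 FPKM with Si-KDM4C#1, then 21.0 ± 0.756 FPKM with Si-KDM4C#2 (SD, n = 3), and changed on the log2 scale by -0.61 (adjusted p = 2.14e-05) and 0.04 (adjusted p = 0.613).

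Of the 20 accessory subunits of the membrane arm, 7 rose and 5 fell with Si-KDM4C#1, while with Si-KDM4C#2 8 rose and 4 fell. NDUFB1, a small subunit that spans the membrane, was at 12.9, 16.0 and 15.7 FPKM in Scramble, 5.53, 6.02 and 6.19 FPKM with Si-KDM4C#1, then 17.02, 15.8 and 17.5 FPKM with Si-KDM4C#2. The libraries with Si-KDM4C#1 lay far below the rest, while Scramble and Si-KDM4C#2 overlapped. The Scramble mean was 2.51 times that with Si-KDM4C#1, and the log2 fold change was -1.19 (SE 0.079, adjusted p = 9.42e-07), against 0.17 with Si-KDM4C#2 (adjusted p = 0.0915). NDUFB2, another small subunit of that arm, was at 12.0, 11.5 and 10.2 FPKM in Scramble, 4.62, 4.81 and 4.11 FPKM with Si-KDM4C#1, then 12.8, 13.8 and 13.0 FPKM with Si-KDM4C#2. The 3 groups did not overlap, with the libraries with Si-KDM4C#1 lowest and those with Si-KDM4C#2 highest. On the log2 scale NDUFB2 changed by -1.15 with Si-KDM4C#1 (SE 0.068, adjusted p = 4.53e-07) and 0.22 with Si-KDM4C#2 (adjusted p = 0.0201). The second call did not hold without Scramble replicate 3 (0.16, adjusted p = 0.0710) or without Si-KDM4C#2 replicate 2 (0.19, adjusted p = 0.0703), nor under quantile normalization (0.14, adjusted p = 0.0852). For NDUFB2, 35.9% of exon bases were shared with another gene, mostly on the opposite strand, and whether the counting used strand is not given in the sources used here.

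Other membrane arm subunits rose with both siRNAs. NDUFB6 was at 21.7 ± 0.867, 38.4 ± 1.48 and 28.4 ± 0.276 FPKM in Scramble, Si-KDM4C#1 and Si-KDM4C#2 (SD, n = 3), NDUFB10 at 59.7 ± 1.95, 97.4 ± 4.17 and 93.7 ± 3.30 FPKM, and NDUFC1 at 13.4 ± 0.733, 18.3 ± 0.671 and 22.8 ± 1.41 FPKM. All of these were separate from Scramble with both siRNAs. NDUFB6 was higher with Si-KDM4C#1 than with Si-KDM4C#2 (log2 difference of Si-KDM4C#2 from Si-KDM4C#1 -0.42, adjusted p = 1.53e-05), and NDUFC1 was lower (0.30, adjusted p = 0.00109). NDUFA1, NDUFA8, NDUFA11 and NDUFB7 also rose with both, by log2 fold changes of 0.43 to 0.69. NDUFC2 and NDUFB4 fell with both, and NDUFA3 and NDUFS5 fell with Si-KDM4C#2 alone, NDUFA3 by 0.42 on the log2 scale (adjusted p = 0.00216) and NDUFS5 by 0.19 (adjusted p = 0.0209). The call of NDUFS5 did not hold without Scramble replicate 2 or 3 or Si-KDM4C#2 replicate 1 or 2.

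In complex II, the catalytic subunits SDHA and SDHB were higher and the membrane anchors SDHC and SDHD lower, but not each with both siRNAs. SDHA was at 50.3, 48.7 and 46.4 FPKM in Scramble, 71.2, 69.6 and 70.9 FPKM with Si-KDM4C#1, then 46.1, 46.7 and 46.9 FPKM with Si-KDM4C#2. It was higher in every library with Si-KDM4C#1, while Scramble and Si-KDM4C#2 overlapped. For SDHA the log2 fold change was 0.53 (SE 0.036, adjusted p = 9.30e-07) and -0.06 (adjusted p = 0.209), and the siRNAs differed by -0.59 (adjusted p = 6.74e-07). SDHB, the iron-sulfur subunit, was higher with both, from 28.0 ± 2.32 to 34.4 ± 2.22 and 35.2 ± 0.781 FPKM (SD, n = 3), with log2 fold changes of 0.29 (adjusted p = 0.00258) and 0.32 (adjusted p = 0.00169).

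SDHD, a membrane anchor, was at 18.4, 19.1 and 16.4 FPKM in Scramble, 15.7, 16.8 and 18.8 FPKM with Si-KDM4C#1, then 12.7, 12.5 and 10.1 FPKM with Si-KDM4C#2. The libraries with Si-KDM4C#2 lay below all others, and Scramble and Si-KDM4C#1 overlapped. Its log2 fold change was -0.07 (adjusted p = 0.535) and -0.58 (SE 0.095, adjusted p = 0.000582). SDHC, the other anchor, was lower with Si-KDM4C#1 (log2 fold change -0.26, adjusted p = 0.00215) and at 0.09 with Si-KDM4C#2 (adjusted p = 0.199). The call of SDHB with Si-KDM4C#1 did not hold under quantile normalization (0.11, adjusted p = 0.136), and that of SDHC did not hold with an adjustment for GC content (-0.09, adjusted p = 0.171).

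Complex III held the largest change of the chain. UQCRB, a small subunit near the quinone site, lies on chromosome 8 from 96225920 to 96235634 on the minus strand in GRCh38. It was at 19.2, 19.7 and 18.4 FPKM in Scramble, 1.45, 1.31 and 1.40 FPKM with Si-KDM4C#1, then 18.4, 18.5 and 18.6 FPKM with Si-KDM4C#2. The libraries with Si-KDM4C#1 were far below all others, and Scramble and Si-KDM4C#2 overlapped. The Scramble mean was 13.8 times that with Si-KDM4C#1, the log2 fold change was -3.07 (SE 0.043, adjusted p = 5.59e-10), and the siRNAs differed by 3.03 (adjusted p = 4.29e-10). With Si-KDM4C#2 the log2 fold change was -0.04 (adjusted p = 0.432).

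The other 7 members of complex III were all higher with Si-KDM4C#1, so the median of the complex was 0.29 for Si-KDM4C#1 and 0.12 for Si-KDM4C#2. UQCRC1, UQCRC2 and UQCRFS1, the core subunits and the Rieske iron-sulfur protein, had log2 fold changes of 0.23, 0.33 and 0.33 with Si-KDM4C#1, and all 3 were lower with Si-KDM4C#2 than with Si-KDM4C#1. For UQCRC1 that difference (-0.13, adjusted p = 0.0219) was lost without Si-KDM4C#1 replicate 1 or 3 or Si-KDM4C#2 replicate 3. UQCRH, the hinge protein, was at 158, 153 and 131 FPKM in Scramble, 200, 210 and 223 FPKM with Si-KDM4C#1, then 145, 144 and 144 FPKM with Si-KDM4C#2. Only the libraries with Si-KDM4C#1 stood apart. The log2 fold change of UQCRH was 0.52 (SE 0.068, adjusted p = 9.33e-05) and -0.02 (adjusted p = 0.775). UQCR10 rose from 52.5 ± 0.758 to 65.3 ± 2.50 and 75.4 ± 4.31 FPKM (SD, n = 3), with log2 fold changes of 0.31 (adjusted p = 0.000258) and 0.51 (adjusted p = 1.22e-05). UQCRQ and UQCR11, 2 further small subunits, were higher with both by 0.18 to 0.29. The call of UQCRQ with Si-KDM4C#2 (0.18, adjusted p = 0.0214) did not hold without Scramble replicate 1 or 3 or Si-KDM4C#2 replicate 3.

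In complex IV, 4 of 11 tested members were higher and 3 lower with either siRNA, or 36.4% and 27.3%, near the shares of all genes (31.7% and 33.9% with Si-KDM4C#1, 34.4% and 25.0% with Si-KDM4C#2). COX8A, the smallest subunit, was at 99.5, 75.3 and 76.5 FPKM in Scramble, 176, 227 and 211 FPKM with Si-KDM4C#1, then 141, 132 and 99.4 FPKM with Si-KDM4C#2. All libraries with Si-KDM4C#1 were above the rest, and 1 library with Si-KDM4C#2 lay at the level of the highest Scramble library. For COX8A the log2 fold change was 1.28 (SE 0.152, adjusted p = 4.91e-05) and 0.56 (adjusted p = 0.0105), and with the GC adjustment the second was 0.34 (adjusted p = 0.0617). The gene shares 34.5% of its exon bases with another on the same strand. COX6A1, the liver-type isoform of a regulatory subunit, varied widely between libraries, with 31.6, 24.3 and 16.1 FPKM in Scramble, 39.9, 53.6 and 50.6 FPKM with Si-KDM4C#1, then 42.4, 43.2 and 33.4 FPKM with Si-KDM4C#2. Every knockdown library was above every Scramble library. For COX6A1 the log2 fold change was 1.01 (SE 0.213, adjusted p = 0.00214) and 0.74 (adjusted p = 0.0133).

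COX7B and COX7C, small subunits that span the membrane, fell. COX7B was at 69.7, 83.5 and 86.0 FPKM in Scramble, 32.8, 31.0 and 31.3 FPKM with Si-KDM4C#1, then 65.8, 61.9 and 68.3 FPKM with Si-KDM4C#2. The 3 groups did not overlap, and the libraries with Si-KDM4C#1 were lowest. The Scramble mean was 2.51 times that with Si-KDM4C#1 and 1.22 times that with Si-KDM4C#2. On the log2 scale COX7B changed by -1.30 (SE 0.074, adjusted p = 3.62e-07) and -0.28 (adjusted p = 0.00926). COX7C went from 114 ± 5.56 FPKM to 69.1 ± 1.28 FPKM with Si-KDM4C#1, then 105 ± 4.25 FPKM with Si-KDM4C#2 (SD, n = 3). Its log2 fold change was -0.71 (adjusted p = 6.50e-07) and -0.12 (adjusted p = 0.0413), and the second call was lost without any 1 of the libraries other than Scramble replicate 1 and Si-KDM4C#2 replicate 3, and with the GC adjustment (-0.02, adjusted p = 0.703).

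COX5A, a subunit on the matrix side, rose with both siRNAs from 79.1 ± 3.68 to 102 ± 3.73 and 98.8 ± 3.31 FPKM (SD, n = 3), and COX5B, the zinc-binding subunit, was 0.16 higher with Si-KDM4C#2 (adjusted p = 0.00165). The call of COX5B did not hold under quantile normalization, the GC or exon length adjustment or limma voom. NDUFA4 was at 33.9 ± 2.10, 33.1 ± 0.561 and 31.3 ± 0.936 FPKM and passed in neither comparison (log2 fold change -0.03 and -0.11). Its paralog NDUFA4L2, known to be induced in low oxygen, was at 53.1, 47.7 and 50.3 FPKM in Scramble, 31.6, 31.7 and 30.2 FPKM with Si-KDM4C#1, then 30.03, 29.5 and 29.97 FPKM with Si-KDM4C#2. Both siRNAs were below Scramble in every library. For NDUFA4L2 the log2 fold change was -0.67 (SE 0.043, adjusted p = 7.33e-07) and -0.73 (adjusted p = 8.01e-07), and the siRNAs differed by -0.06 (adjusted p = 0.249).

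In complex V, 6 of 17 subunits rose and 5 fell with Si-KDM4C#1, while 9 rose and 0 fell with Si-KDM4C#2. With Si-KDM4C#1 these were 35.3% and 29.4%, near the 31.7% and 33.9% of all genes, and with Si-KDM4C#2 34.4% of all genes rose and 25.0% fell. The 5 lower ones included ATP5F1A and ATP5F1B, the alpha and beta subunits of the catalytic head, and ATP5F1C, the gamma subunit of the central stalk. ATP5F1B was at 697, 708 and 681 FPKM in Scramble, 365, 352 and 347 FPKM with Si-KDM4C#1, then 700, 704 and 686 FPKM with Si-KDM4C#2. The libraries with Si-KDM4C#1 were far below the others, and Scramble and Si-KDM4C#2 overlapped. The log2 fold change was -0.97 (SE 0.033, adjusted p = 1.89e-08) and 0.00 (adjusted p = 0.956), and the Scramble mean was 1.96 times that with Si-KDM4C#1. ATP5F1A and ATP5F1C fell with Si-KDM4C#1 too, by 0.33 (adjusted p = 2.04e-05) and 0.43 (adjusted p = 8.16e-06) on the log2 scale, and were at 0.01 and -0.00 with Si-KDM4C#2.

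ATP5F1D, the delta subunit of the central stalk, moved the opposite way. It was at 38.5, 34.6 and 34.5 FPKM in Scramble, 76.0, 70.6 and 77.6 FPKM with Si-KDM4C#1, then 59.4, 56.1 and 53.2 FPKM with Si-KDM4C#2. The 3 groups did not overlap. ATP5F1D had a log2 fold change of 1.04 (SE 0.058, adjusted p = 3.29e-07) and 0.64 (adjusted p = 1.27e-05), and the siRNAs differed by -0.40 (adjusted p = 0.000220).

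The proton-conducting c ring is made from 3 genes that encode the same mature protein. ATP5MC1 was higher with both siRNAs (log2 fold change 0.28 and 0.29), and ATP5MC2 and ATP5MC3 were higher with Si-KDM4C#2 alone (0.28 and 0.15), at 0.01 and 0.05 with Si-KDM4C#1. The call of ATP5MC3 was lost without Scramble replicate 3 or any library with Si-KDM4C#2. Of the 4 peripheral stalk subunits, ATP5PB rose from 36.7 ± 0.528 to 55.3 ± 1.16 and 48.9 ± 1.41 FPKM (SD, n = 3). ATP5PF was higher with Si-KDM4C#2 alone, at 28.5 ± 0.832, 28.3 ± 0.932 and 37.5 ± 1.45 FPKM in Scramble, Si-KDM4C#1 and Si-KDM4C#2. ATP5PD was lower with Si-KDM4C#1 (log2 fold change -0.42, adjusted p = 0.00122), and ATP5PO passed in neither.

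Among the 5 small membrane subunits, ATP5ME, which helps join ATP synthase dimers, showed the largest rise with Si-KDM4C#2. It was at 7.26, 6.82 and 5.46 FPKM in Scramble, 7.25, 6.85 and 5.83 FPKM with Si-KDM4C#1, then 16.1, 13.9 and 11.3 FPKM with Si-KDM4C#2. All libraries with Si-KDM4C#2 were above the others, and Scramble and Si-KDM4C#1 overlapped. ATP5ME had a log2 fold change of 0.03 (adjusted p = 0.868) and 0.97 (SE 0.132, adjusted p = 0.000169). For ATP5ME, 61.6% of exon bases were shared with a gene on the opposite strand. ATP5MD was higher with both siRNAs (0.86 and 0.56), and ATP5MG was lower with Si-KDM4C#1 (-0.42, adjusted p = 0.000395) and at -0.03 with Si-KDM4C#2.

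**Figure D2:**
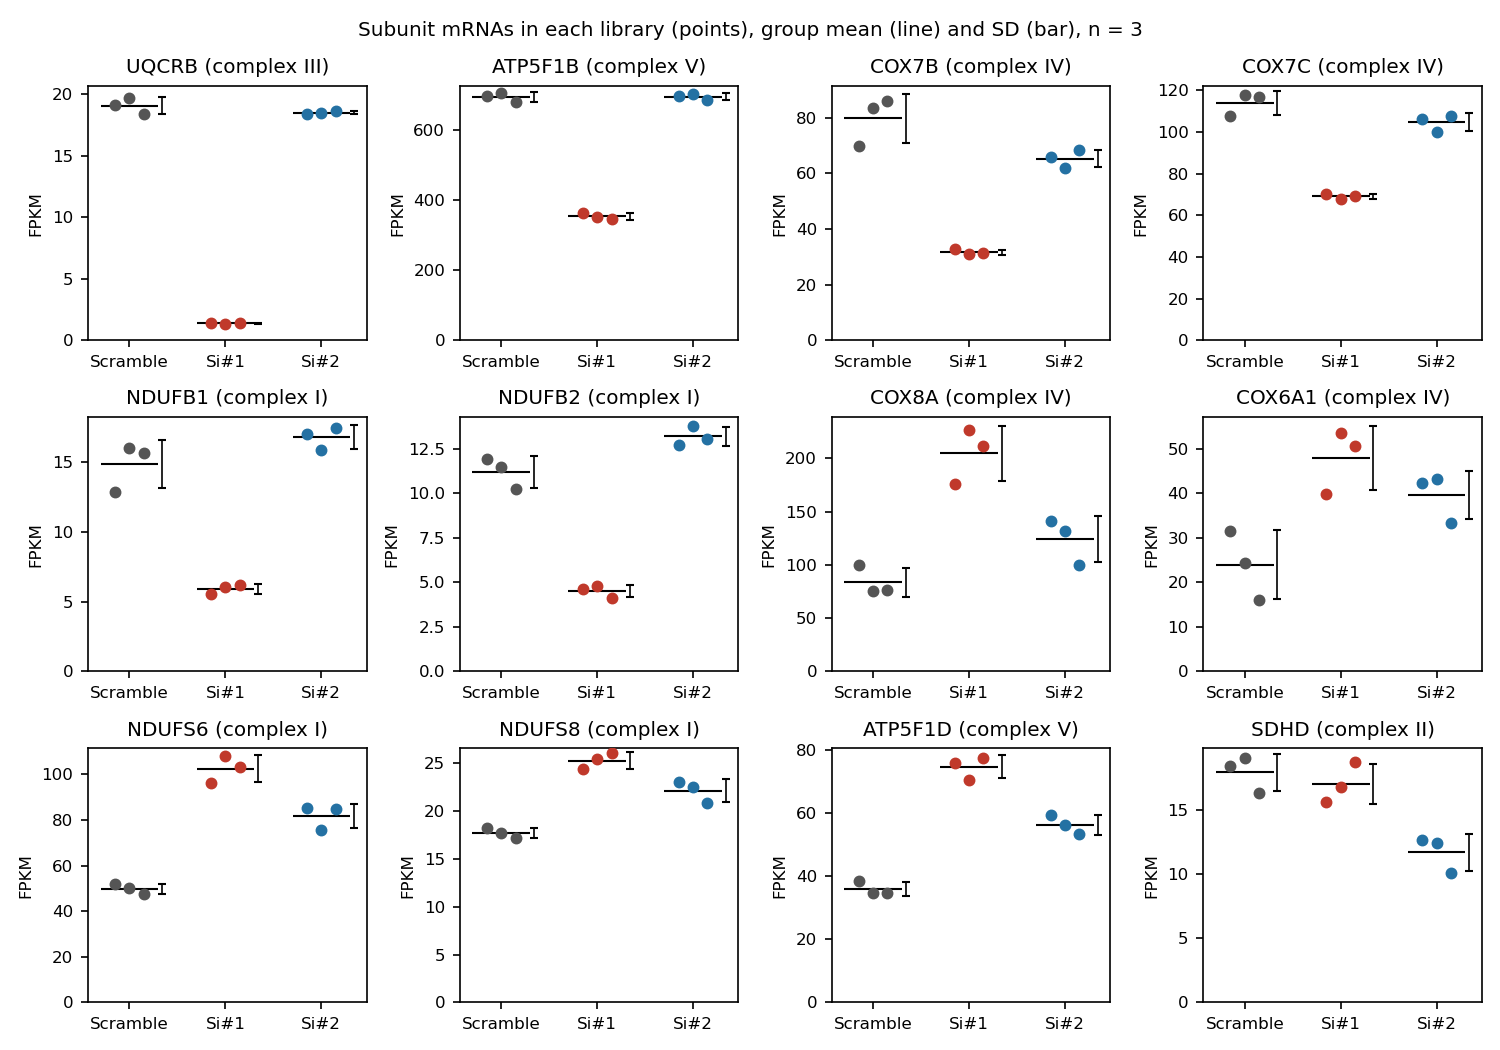
FPKM (vertical axis, from 0) of 12 members in each of the 9 libraries, with the group mean as a line and the SD as a bar (n = 3). UQCRB, ATP5F1B, NDUFB1 and NDUFB2 are low with Si-KDM4C#1 (Si#1) and near the Scramble level with Si-KDM4C#2 (Si#2), while NDUFS8 and NDUFS6 are above Scramble with both.

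The siRNAs were also compared directly. Against Si-KDM4C#1, 25 members were higher and 21 lower with Si-KDM4C#2, beside 35.9% and 26.5% of all genes, and the median log2 difference was 0.05 beside 0.08 over all genes. Differences of over 2-fold were seen for UQCRB (3.03), NDUFB2 (1.37), NDUFB1 (1.36) and COX7B (1.02), all higher with Si-KDM4C#2, beside 4.41% of all genes, and 0 were lower, beside 2.49% (21 at the adjusted p alone). In complex V, 10 of 17 were higher and 5 lower with Si-KDM4C#2. The split over all members turned to 19 higher and 29 lower under median-ratio scaling and to 19 and 30 with limma voom.

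By complex, members with high FPKM weighed on the sums. Summed FPKM of complex V was 1255 ± 18.8 in Scramble, 987 ± 5.64 with Si-KDM4C#1, then 1375 ± 17.8 with Si-KDM4C#2 (SD, n = 3). Without ATP5F1B, the 16 other members summed to 559 ± 11.4, 632 ± 14.3 and 678 ± 9.59 FPKM, so the order of Scramble and Si-KDM4C#1 turned on that subunit. Complex I summed to 1260 ± 30.3, 1453 ± 42.8 and 1418 ± 5.86 FPKM, and complex III to 452 ± 9.04, 556 ± 14.7 and 494 ± 3.10 FPKM. Complex II was at 102 ± 0.527, 129 ± 3.11 and 102 ± 1.79 FPKM, and complex IV at 726 ± 9.09, 801 ± 33.9 and 771 ± 21.5 FPKM. Less the median of all genes tested, the medians of complexes I to V were 0.07, 0.14, 0.33, 0.12 and 0.06 with Si-KDM4C#1, then 0.08, -0.04, 0.06, 0.03 and 0.11 with Si-KDM4C#2. Under quantile normalization those of complexes II, IV and V with Si-KDM4C#1 changed sign, to -0.04, -0.09 and -0.08. The sums and medians cover only members found by symbol, so CYC1, COX4I1 and NDUFAB1, given below, are left out. No test was made on sums or medians.

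**Figure D3:**
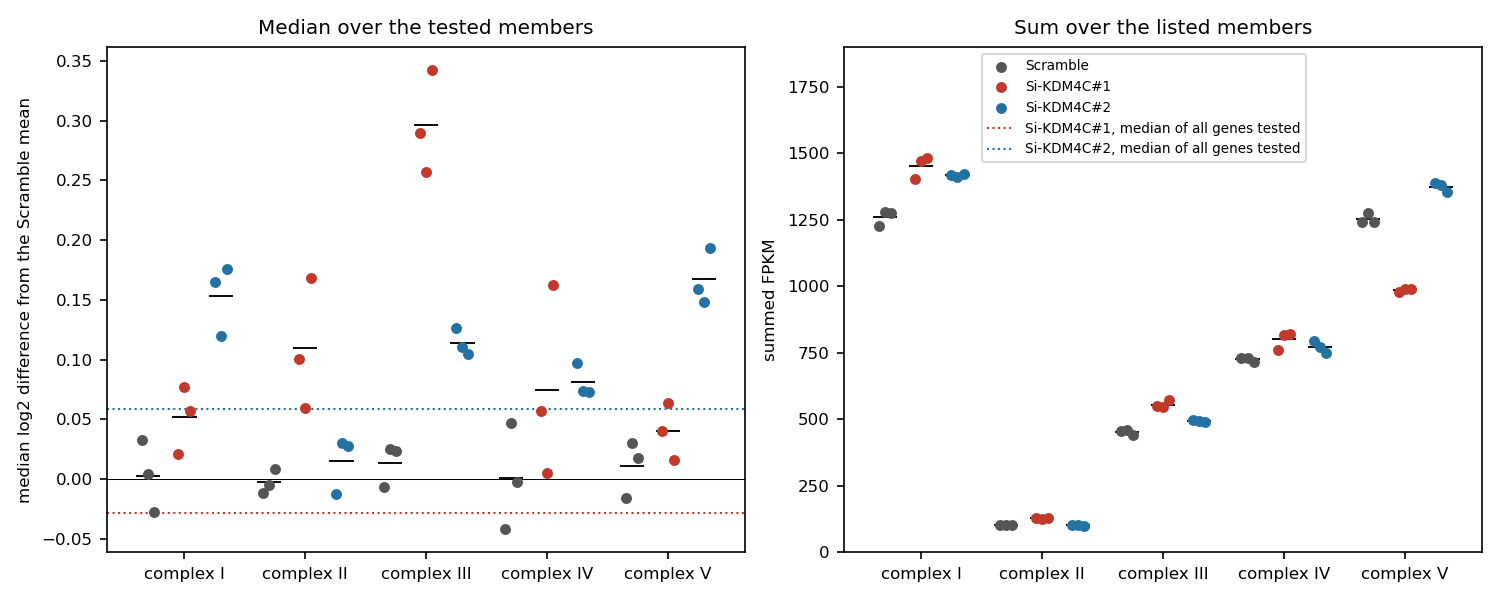
Left, the median log2(FPKM + 1) difference from the Scramble mean over the tested members of each complex, 1 point per library with the mean of 3 as a line, and dotted lines for the median of all genes tested. Right, FPKM summed over the listed members of each complex (axis from 0). Complex III with Si-KDM4C#1 lies highest on the left, and complex V with Si-KDM4C#1 is lowest for its complex on the right.

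Base composition moved with the fold changes. Across the 75 members, the log2 fold change and the GC content of the exons had a Pearson r of 0.40 with Si-KDM4C#1 and 0.30 with Si-KDM4C#2, beside 0.32 and 0.31 over 14343 genes. For exon length r was -0.31 and -0.32 in the members, beside 0.04 and 0.02 over 14351 genes. These correlations run across genes of the same libraries, which are not independent, and describe these libraries only. Members higher with both siRNAs had a median GC content of 52.0% and those lower with both 41.7%. The part of base composition and length in the results was not tested beyond the adjusted fits given here.

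**Figure D4:**
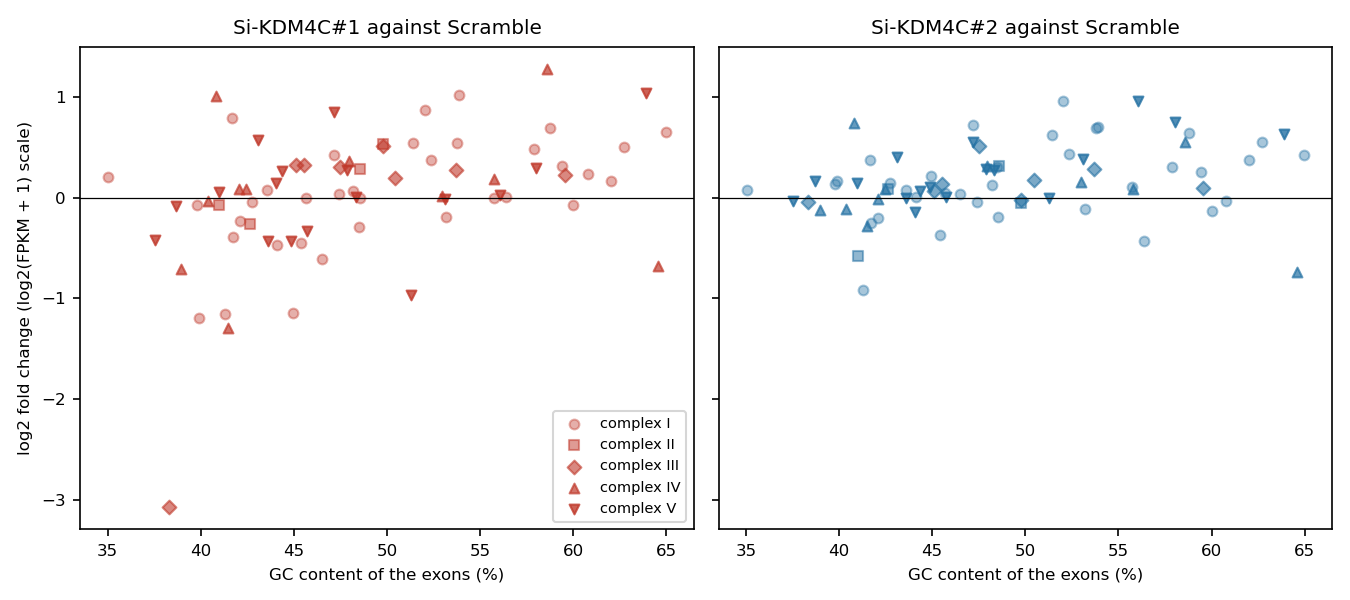
Log2 fold change of the 75 tested members against GC content (%), for Si-KDM4C#1 (left) and Si-KDM4C#2 (right), with a symbol for each complex. GC content is that of the longest annotated transcript, though the axis label names the exons. GC-poor members lie lower, with UQCRB at the bottom left of the panel for Si-KDM4C#1 and Pearson r of 0.40 and 0.30 over the panels.

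Because several members fell with Si-KDM4C#1 and not with Si-KDM4C#2, the 3′ UTRs of the members in GENCODE release 29 were searched for the 7 bases that pair with each guide seed. The match to Si-KDM4C#1, ATGAAGA, was in 8 of the 75 members (10.7%), beside 20.3% of 11110 tested protein-coding genes. Those members were ATP5F1A, COX7C, NDUFA11, NDUFA12, NDUFB1, NDUFS1, SDHC and UQCRB, with 4 matches in NDUFS1 and in UQCRB. With Si-KDM4C#1, 7 of the 8 were lower and NDUFA11 was higher, and their median log2 fold change was -0.47 against 0.15 in members without it, beside -0.20 and 0.06 over all such genes. With Si-KDM4C#2 the same 8 had a median of 0.02, with 2 lower and 1 higher. Of all genes tested, 33.9% were lower and 31.7% higher with Si-KDM4C#1, then 25.0% and 34.4% with Si-KDM4C#2. Calls among all genes with a match were not counted. ATP5F1B, COX7B, NDUFB2 and NDUFV2, all lower with Si-KDM4C#1, had no match. The match to Si-KDM4C#2, CATGATC, was in 9 members (12.0%, beside 10.5%), of which 1 was lower and 2 higher with Si-KDM4C#2, with a median of 0.09 against 0.14 in the rest. NDUFB2 was among these 9, although it was higher with Si-KDM4C#2. The sites below are shown to compare them with the KDM4C sites given above, in GRCh38, with the seed match in capitals. A match is a run of letters, not a measured site, and its part in the results was not tested.
Si-KDM4C#1 match in NDUFB1, chr14:92116130-92116148, strand minus: gaaataaaaacATGAAGAa
Si-KDM4C#1 match in NDUFA12, chr12:94971427-94971445, strand minus: aagtaaagacaATGAAGAa
Si-KDM4C#1 match in ATP5F1A, chr18:46081216-46081234, strand minus: aaacttctcaaATGAAGAc
Si-KDM4C#2 match in NDUFB2, chr7:140706446-140706464, strand plus: caaggctgtcaCATGATCa

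Subunits and carriers that the symbols did not cover mostly rose. Of 6 tested, 4 (66.7%) were higher with Si-KDM4C#1 and 6 (100%) with Si-KDM4C#2, beside 31.7% and 34.4% of all genes. Their median log2 fold change was 0.35 and 0.36, beside -0.03 and 0.06 over all genes tested. CYC1, cytochrome c1 of complex III, was at 112, 111 and 110 FPKM in Scramble, 181, 175 and 180 FPKM with Si-KDM4C#1, then 170, 168 and 160 FPKM with Si-KDM4C#2. All knockdown libraries were above Scramble, with log2 fold changes of 0.69 (SE 0.033, adjusted p = 1.31e-07) and 0.58 (adjusted p = 6.45e-07). CYCS, cytochrome c, rose from 24.0 ± 0.330 to 39.6 ± 1.71 and 35.2 ± 1.21 FPKM, COX4I1 from 51.1 ± 0.589 to 63.4 ± 2.21 and 55.3 ± 0.712 FPKM, and NDUFAB1, the mitochondrial acyl carrier protein, from 45.6 ± 2.33 to 60.5 ± 3.07 and 52.2 ± 1.15 FPKM (SD, n = 3). With Si-KDM4C#2 the calls of COX4I1 and NDUFAB1 did not hold under quantile normalization or limma voom, and that of COX4I1 was lost without Scramble replicate 3 or Si-KDM4C#2 replicate 3. ATP5IF1, the inhibitor of ATP synthase, was higher with Si-KDM4C#2 alone, at 24.3 ± 0.845, 26.4 ± 4.05 and 41.6 ± 4.09 FPKM, and COX7A2L was 0.16 higher with Si-KDM4C#2 (adjusted p = 0.0344), a call lost without Scramble replicate 1 or 2 or Si-KDM4C#2 replicate 1 or 3. COX4I2, the oxygen-sensitive isoform, was at 0 in 8 of the 9 libraries.

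Of 50 tested assembly factors, 26 rose and 9 fell with Si-KDM4C#1, while with Si-KDM4C#2 27 rose and 8 fell. Of all genes, 31.7% and 33.9% did so in the first comparison, then 34.4% and 25.0% in the second. Their median log2 fold change was 0.24 and 0.21, beside -0.03 and 0.06 over all genes. UQCC3, an assembly factor of complex III, was at 1.80, 1.86 and 1.46 FPKM in Scramble, 8.27, 8.37 and 8.93 FPKM with Si-KDM4C#1, then 6.97, 5.60 and 6.04 FPKM with Si-KDM4C#2. The groups did not overlap, and the log2 fold change was 1.82 (adjusted p = 9.82e-08) and 1.41 (adjusted p = 8.22e-07). LRPPRC, which stabilizes mitochondrial mRNAs, was at 28.2 ± 0.574, 46.5 ± 0.207 and 37.3 ± 1.23 FPKM (SD, n = 3). COX17, a copper chaperone of complex IV, fell with Si-KDM4C#1 (log2 fold change -1.32, adjusted p = 4.85e-07) and rose with Si-KDM4C#2 (0.40, adjusted p = 0.00175). LYRM7, which matures the Rieske protein, and NDUFAF3, a factor for complex I, were higher with Si-KDM4C#2 alone, by 0.90 (adjusted p = 3.82e-07) and 0.55 (adjusted p = 9.99e-06).

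Of 13 regulators, 8 rose and 2 fell with Si-KDM4C#1, while with Si-KDM4C#2 6 rose and 1 fell. These were 61.5% and 15.4%, then 46.2% and 7.69%, beside 31.7% and 33.9%, then 34.4% and 25.0% of all genes. Their median log2 fold change was 0.20 and 0.02, beside -0.03 and 0.06. ESRRA, an orphan nuclear receptor that acts on respiratory genes, was at 20.9 ± 0.680, 39.0 ± 1.77 and 46.6 ± 2.84 FPKM in Scramble, Si-KDM4C#1 and Si-KDM4C#2 (SD, n = 3). The coactivator PPRC1 was at 11.0 ± 0.478, 17.7 ± 0.469 and 16.7 ± 0.860 FPKM. Both rose with each siRNA, ESRRA by log2 fold changes of 0.87 and 1.12 and PPRC1 by 0.64 and 0.56. TFB2M, a mitochondrial transcription factor, was at 17.2 ± 0.444, 46.1 ± 3.96 and 19.5 ± 0.418 FPKM, and rose by 1.37 on the log2 scale with Si-KDM4C#1 (adjusted p = 6.68e-08). TFAM, which packages and transcribes mitochondrial DNA, was lower with Si-KDM4C#2 (-0.59, adjusted p = 6.96e-06) and at 0.06 with Si-KDM4C#1 (adjusted p = 0.273).

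The 13 subunit mRNAs of the mitochondrial genome went down more often than up, 1 up against 9 down with Si-KDM4C#1 and 1 up against 6 down with Si-KDM4C#2, at a median log2 fold change of -0.43 and -0.20, beside -0.03 and 0.06 over all genes. The lower ones were 69.2% and 46.2%, beside 33.9% and 25.0% of all genes. Under quantile normalization the values of MT-ND4, MT-CO3 and MT-CYB with Si-KDM4C#1 (-0.59, -0.45 and -0.06) and of MT-CO2 and MT-CO3 with Si-KDM4C#2 (-0.54 and -0.20) changed sign. The call of MT-CO3 with Si-KDM4C#2 was lost without Scramble replicate 2 or Si-KDM4C#2 replicate 1 or 2.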

How the data were processed

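RNA-seq of 9 libraries was used. Per the labels, libraries were made with an NEB Next Ultra RNA kit. The submitters' processing notes name FastQC 0.11.5, HISAT2 2.1.0, featureCounts, StringTie 1.3.3b, DESeq 1.28.0 and the GRCh38 build. Whether counting used strand is not given in the sources used here. The authors deposited 1 FPKM value per gene and library, and the files were joined by gene identifier. Multiplying FPKM by exon length (GENCODE 29) gave fragments that were whole within 0.05 in every library for 32069 genes (97.5%), and so the depth.

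A gene was tested where its group mean reached 1 FPKM in 1 or more groups. Log2(FPKM + 1) was fitted over all 9 libraries with limma 3.58.1 (limma-trend, R 4.3.3), 1 coefficient per group, and p-values were adjusted by Benjamini-Hochberg over all 14363 genes at a threshold of 0.05. On simulated counts with planted 1.5-fold changes, limma-trend recovered 78.9% of 199 with Si-KDM4C#1 and 77.9% of 199 with Si-KDM4C#2. There were 7 and 10 false calls among 13453 genes. The simulation gave all genes the same dispersion and no dependence on GC content, so it does not show how the fit performs on these data. All comparisons between genes use FPKM, and SDs are over 3 libraries. Alternatives were quantile and median-ratio scaling, a pseudocount of 0.1, a threshold of 0.01, other filters, lowess adjustments for GC content and exon length (span 0.3), a replicate block, the libraries compared alone, each library left out, and limma voom on the recovered fragments of 15999 genes. NDUFV1, NDUFB9 and ATP5MD did not give whole fragments and are not in the voom fit.

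The members and lists were chosen with earlier results of these data known, and so was the search for seed matches. The genes named by rule were members past the threshold with a fold change over 2, the 3 members of each complex with the smallest adjusted p for each siRNA against Scramble and the 2 with the smallest between the siRNAs, the complex IV isoforms, the subunits outside the symbol patterns, the 3 assembly factors and 3 regulators with the smallest adjusted p for each siRNA, and KDM4C. Of the genes named by rule, 1 is not reported here. Other members were named after their values were seen. Sequences are from RefSeq (GRCh38.p14, promoters of 64 members) and from the GRCh38 genome with GENCODE 29. COX6A2 and COX7B2 were not analysed here. Python 3.11.15, numpy 2.4.6, pandas 2.3.3, scipy 1.17.1 and matplotlib 3.10.9 were used.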

Additional observations from a re-analysis of the deposited data

Results flagged for a closer look

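NDUFA6 and NDUFB2 were singled out because every library with Si-KDM4C#1 lay below and every library with Si-KDM4C#2 above the Scramble libraries. The direct comparison of the siRNAs uses the same libraries, so it describes the size of this difference and is no separate test of it. It gave a log2 difference of 0.60 for NDUFA6 (limma-trend, adjusted p = 5.36e-06) and 1.37 for NDUFB2 (adjusted p = 2.16e-07). For NDUFB2 the rise with Si-KDM4C#2 is the smaller part, 0.22 on the log2 scale, and did not pass without Scramble replicate 3 or Si-KDM4C#2 replicate 2.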

How the results depend on the processing

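Precision is limited by 3 libraries per group and, for members under about 2 FPKM, by few fragments. Whether the numbers shared by replicates pair the libraries was not settled. Deviations of same-numbered libraries had a mean correlation of 0.0162 (-0.0461 to 0.0546), beside -0.00808 (-0.0529 to 0.0635) for different numbers. Of the 9 libraries, 6 correlated best with their own number. With the replicate block 34 members rose and 19 fell with Si-KDM4C#1, 36 rose and 10 fell with Si-KDM4C#2, and the direct comparison gave 26 and 20. COX7C with Si-KDM4C#2 then missed the threshold (-0.12, adjusted p = 0.0595).

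Counts of members moved as follows, and the cause was not tested. The 4 that rose over 2-fold with Si-KDM4C#1 became 2 with GC adjustment, with or without the block, and 1 with exon length adjustment or quantile normalization. With Si-KDM4C#2 the 0 that rose over 2-fold became 1 with voom, voom with the block or a pseudocount of 0.1, and the 0 that fell over 2-fold became 1 in those fits and with GC (also with the block) or exon length adjustment. The 10 that fell with Si-KDM4C#2 became 16 with exon length adjustment and 18 with quantile normalization. With 1 library left out, these over 2-fold counts ranged from 2 to 4, from 0 to 1 and from 0 to 1. The splits, higher then lower, were 35 and 20, 27 and 15, and 19 and 30 with voom for Si-KDM4C#1, Si-KDM4C#2 and the direct comparison, 31 and 17, 26 and 16, and 20 and 26 with exon length adjustment, 36 and 18, 31 and 13, and 21 and 26 with GC adjustment, and 27 and 17 for the direct comparison under quantile normalization.

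Medians of complexes less the median of all genes also moved. With GC adjustment, with or without the block, complexes II and V were at 0.23 and 0.14 with Si-KDM4C#1, 0.014 and 0.25 with Si-KDM4C#2, and complex V at 0.22 between the siRNAs. With at least 1 FPKM in every library, complexes I and V with Si-KDM4C#1 were at 0.0040 and 0.0059. With exon length adjustment, complexes II, III and IV were at 0.062, 0.22 and -0.0010 with Si-KDM4C#1, then 0.038, -0.0035 and -0.084 with Si-KDM4C#2. With voom, complex V was at 0.11 with Si-KDM4C#1, IV at -0.078 with Si-KDM4C#2 and II at -0.39 between the siRNAs. With voom and the block, complexes I and III were at 0.11 and 0.39 with Si-KDM4C#1, IV at -0.052 with Si-KDM4C#2 and III at -0.21 between the siRNAs. With no filter, complexes I, II, III and V were at 0.13, 0.015, 0.12 and 0.17 with Si-KDM4C#2, and I, III, IV and V at 0.046, -0.090, -0.038 and 0.25 between the siRNAs. Under quantile normalization, complexes II to V were at -0.039, 0.13, -0.092 and -0.083 with Si-KDM4C#1, III to V at 0.0049, -0.051 and 0.039 with Si-KDM4C#2, and I to V at 0.059, -0.22, -0.050, -0.014 and 0.33 between the siRNAs. With 1 library left out, complexes I, III and V with Si-KDM4C#2 ranged from 0.046 to 0.11, 0.024 to 0.11 and 0.091 to 0.18.

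Single genes past the threshold in either fit changed sign in 32 cases. With quantile normalization these were COX5B (-0.16), NDUFAF3 (-0.13), ATP5MC2 (-0.19), MT-ND4 (0.034), MT-CYB (0.11) and MT-CO3 (0.11) with Si-KDM4C#1, ATP5F1B (-0.13), ATP5F1A (-0.13), MT-CO2 (0.075) and MT-CO3 (0.21) with Si-KDM4C#2, and CYC1 (0.031), MT-ND4 (-0.15) and MT-CYB (-0.13) between the siRNAs. With exon length adjustment they were ATP5F1B (-0.16) and TFB2M (-0.0053) with Si-KDM4C#2. With GC adjustment, with or without the block, they were LYRM7 (0.22), NDUFAF3 (-0.25), NDUFB5 (0.17), NDUFA4 (0.19) and ATP5F1E (0.18) with Si-KDM4C#1 and UQCRC1 (-0.14) with Si-KDM4C#2. MT-ND3 (0.17) changed without the block and NDUFS4 (0.12) with it, both with Si-KDM4C#1. ATP5MC1 between the siRNAs was at -0.091 with median-ratio scaling and -0.12 with voom, with or without the block. Among the other results for single genes, those with 1 library left out included, 259 were no longer past the threshold and 180 newly past it, with the same sign, and 5748 kept both sign and call. A further 264, past the threshold in neither fit, changed sign, at values of at most 0.17 in size.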

Other observations

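The 46 pseudogene symbols that the naming rule left out were mostly near 0, with a median of 0.0987 FPKM for the mean over all 9 libraries. The mean was at least 1 FPKM in 8 of them, and NDUFB8P2 was highest at 8.20 FPKM. How reads of such copies were shared with the parent genes was not tested.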
